A study of Bos taurus with 2 samples.

Results

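The ATP-driven ion and lipid pumps of bull testis were described across 2 bovine arrays, one of crossbred and one of Zebu testis. The members were all probes whose gene name begins with ATP1A, ATP1B, ATP2A, ATP2B, ATP2C, ATP6V, ATP6AP, ATP7, ATP8, ATP9, ATP10, ATP11, ATP12A or ATP13A. This rule found 61 of the 32429 gene names on the array, with 132 probes in 144 spots. The name ATP8 among them is described on the array as ATP synthase protein 8 and lies on the mitochondrial chromosome, so it belongs to the enzyme that makes ATP and is not a pump. Its log2 levels were 0.56 for crossbred and 0.61 for Zebu testis, which differed by -0.05, and it is left out of what follows. The other 60 names were 35 P-type pump genes with 80 probes and 25 genes of the vacuolar proton pump with 51 probes.

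Testis RNA came from 3 Holstein Friesian crossbred bulls with 50 to 75% exotic inheritance and from 3 Zebu bulls of the Tharparkar breed, all adult males 24 months of age without any treatment in the labels. Equal amounts of RNA were pooled within each group, with 1 Cy3-labelled array for each pool. The study compared these groups to find testis transcripts that differ between crossbred bulls, in which poor fertility is frequent, and Zebu bulls. Since each group is 1 pool on 1 array, no value has a replicate check between animals, no p-value can be given, and precision is limited by the number of arrays.

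A level here is the log2 of a probe's processed signal minus the 75th percentile of its array, and a difference is crossbred minus Zebu on that log2 scale. A gene was read from its brightest probe and counted as detected where the scanner software marked all spots of that probe as well above background in crossbred testis, in Zebu testis or in both; a probe without that mark is called dim. A gene was called higher or lower at a difference of 1.5 or more in size, which is a 2.83-fold change. Spots of the same probe gave an SD of 0.33 for a difference, over 5960 probes with all spots well above background on both arrays. This SD covers spotting and scanning but neither labelling nor animals, and it was not measured on dim spots. The mark was given to 72.0% of all crossbred spots and 74.3% of all Zebu spots. No pump spot was saturated, marked as an outlier or inside the dark or the bright patch of the crossbred array. In whole testis RNA, fewer cells of a type and less RNA per cell cannot be told apart.

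P-type pumps form a phosphorylated intermediate on the protein itself while they move ions or lipids across a membrane. The Na+/K+ pump sets the sodium gradient and the membrane potential, the calcium pumps clear calcium from the cytosol into stores or out of the cell, the copper pumps load and export copper, and the flippases turn phospholipids to the inner leaflet. The vacuolar proton pump (V-ATPase) is a rotary machine with a V1 sector that splits ATP in the cytosol and a membrane V0 sector through which protons pass, and it acidifies endosomes, lysosomes and the acrosome. In testis, several of these pumps occur in forms restricted to germ cells, among them the alpha 4 chain of the Na+/K+ pump, which sperm need for motility.

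The results turn on a few 60-base probes, which are shown here as the array lists them, with positions on the HGSC Btau_3.1 build from the array annotation. The ATP1A4 probes are shown because both were past the threshold, and they lie at opposite ends of the transcript. The first begins at base 30 of the transcript, at chr3:10492890-10492949, and the second at base 3004, at chr3:10461131-10461190, both on the minus strand.

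ATP1A4, the probe near the transcript start: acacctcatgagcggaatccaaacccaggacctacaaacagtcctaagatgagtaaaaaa
ATP1A4, the probe near the transcript end: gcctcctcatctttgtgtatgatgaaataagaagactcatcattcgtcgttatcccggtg

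The ATP6V1C1 probes are shown because they disagreed. The brightest begins at base 1352 of the transcript, at chr14:59589682-59589741 on the minus strand. Capitals mark a TAA, the first stop triplet in the second reading frame of this probe. The other probe begins 472 bases further towards the 3′ end, at chr14:59589210-59589269, and the first 30 of its bases are given.

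ATP6V1C1, brightest probe: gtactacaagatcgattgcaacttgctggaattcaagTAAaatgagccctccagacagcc
ATP6V1C1, other probe: atgtgacaatattcaggtatgtgctttctg

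All 4 probes of ATP6V0C and 1 of ATP6V1B2 are shown for the same reason, with capitals for the 45 bases that a pair of ATP6V0C probes share. The brightest ATP6V0C probe lies at chr25:2525754-2525813 and the discordant one at chr25:2525887-2525946, both on the plus strand, and the first 30 bases of each are given. The ATP6V1B2 probe with discordant spots has no position in the array annotation.

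ATP6V0C, probe from base 355: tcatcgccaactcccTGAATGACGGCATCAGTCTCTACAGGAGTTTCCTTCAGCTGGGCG
ATP6V0C, probe from base 370: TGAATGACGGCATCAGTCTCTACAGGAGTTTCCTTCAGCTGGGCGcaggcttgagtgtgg
ATP6V0C, brightest probe: catctgccctagagtgctctgtgtataagg
ATP6V0C, discordant probe: accttaggtagactgttgttgcgttgtgcg
ATP6V1B2, probe with discordant spots: ggggggcggtcagcatgattatattttaat

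The other probes shown are those of ATP8A2, at chr12:33694651-33694710, of ATP6V1E2, at chr11:30072504-30072563, and of ATP2C1, at chr1:141152367-141152426 with its first 30 bases, all on the minus strand. ATP8A2 and ATP2C1 were past the threshold, and ATP6V1E2 is the testis form of its subunit. The ATP6V1E2 probe shared no run of more than 7 bases with any probe of ATP6V1E1, the form found in most tissues.

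ATP8A2: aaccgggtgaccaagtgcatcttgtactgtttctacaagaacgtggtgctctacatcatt
ATP6V1E2: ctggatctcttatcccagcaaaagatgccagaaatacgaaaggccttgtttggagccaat
ATP2C1: atgagtgttaaagacttgagactttaacct

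Of the 60 pump genes, 53 were detected, namely 50 in both groups, 1 in crossbred testis alone and 2 in Zebu testis alone. The 7 genes dim in both groups were ATP13A5, ATP1B4, ATP2B2, ATP2B3, ATP8B1, ATP8B2 and ATP6V1G3. Of the detected genes, 4 were called higher in crossbred testis, namely ATP6V1C1, ATP1A4, ATP8A2 and ATP2C1, and 0 were called lower. The 4 genes are 7.55% of those detected, and among all 24751 detected transcripts 7.12% were called higher and 2.92% lower. The share of pump genes called higher was thus near that of all transcripts. The median difference of the detected pump genes was -0.09, with 24 above 0 and 29 below, beside a median of -0.06 over all transcripts. A difference under 0.5 in size was found in 24 pump genes, or 45.3%, against 49.8% of all transcripts. P-type genes had a median of 0.09 and V-ATPase genes of -0.12, so both families lay close to the median of all transcripts. Differences smaller than the SD between spots were found in 7 of 29 P-type genes and in 13 of 24 V-ATPase genes.

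**Figure D1:**
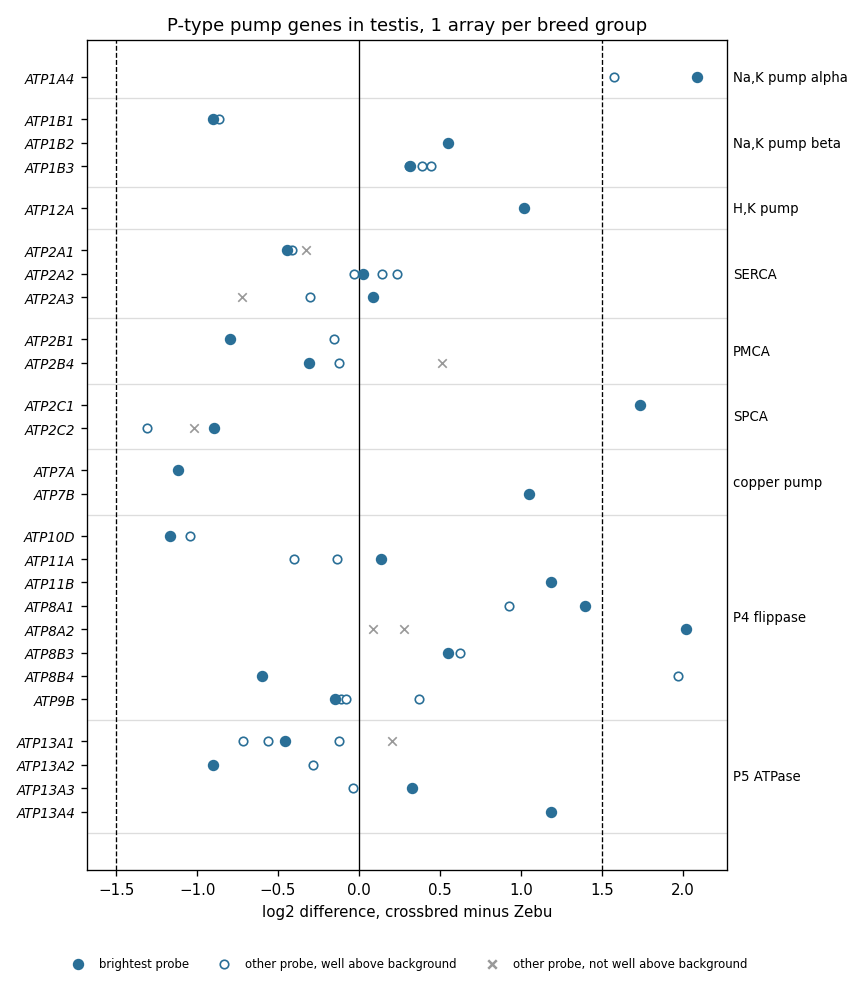
Difference of detected P-type pump genes on the log2 scale (x axis, crossbred minus Zebu), by family. Filled points are the brightest probe, open points other detected probes, crosses probes dim on both arrays, and dashed lines the threshold of 1.5; differences of probes dim on 1 array are as measured. ATP1A4, ATP2C1 and ATP8A2 lie past 1.5 by their brightest probe, and the open point of ATP8B4 lies far from the filled one.

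The Na+/K+ pump is built of a catalytic alpha and a beta chain. ATP1A4, the alpha chain of sperm, had a level of 2.79 in crossbred and of 0.70 in Zebu testis by its brightest probe, which is 2.09 or 4.26-fold higher. Its other probe had 2 spots, with levels of 0.05 and 0.08 in crossbred testis and of -1.56 and -1.46 in Zebu testis. These spots differed by 1.61 and 1.54, so all 3 spots of the gene, at opposite ends of the transcript, were higher in crossbred testis. ATP1A4 was the only pump gene with 2 detected probes both called higher.

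The beta chains bring the alpha chains to the membrane. ATP1B3 had levels of 4.43 in crossbred and 4.11 in Zebu testis, and its 4 probes differed by 0.32, 0.39, 0.31 and 0.45. ATP1B1 had levels of 1.80 and 2.70, and its probes differed by -0.90 and -0.87. Within each of these genes the probes lay closer together than the SD between spots, and neither gene reached the threshold. ATP1B2 had levels of -4.58 and -5.13, a difference of 0.55. ATP12A, the nongastric H+/K+ pump, had levels of -2.85 and -3.87, a difference of 1.02 on 1 probe.

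Calcium pumps of the endoplasmic reticulum (SERCA) differed little between the arrays. ATP2A2, the housekeeping form, had levels of 2.31 in crossbred and 2.29 in Zebu testis, and its 4 probes differed by between -0.03 and 0.23. ATP2A1, the form of fast muscle, differed by -0.44 and ATP2A3, found in blood and epithelial cells, by 0.09. All 3 genes thus lay within 0.5 of 0 by their brightest probe. Among the plasma membrane calcium pumps (PMCA), ATP2B4, the main form in sperm, had levels of -3.92 and -3.61, a difference of -0.31, with -0.12 by another probe. The other detected form, ATP2B1, differed by -0.80 and, by its second probe, by -0.15.

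The Golgi calcium and manganese pumps (SPCA) differed in opposite directions. ATP2C1, the widely expressed form, had a level of 2.70 in crossbred and of 0.96 in Zebu testis, which is 1.74 or 3.33-fold higher. This rests on 1 spot, the single ATP2C1 spot on the array, and the spots around it had a median difference of -0.25. ATP2C2, the epithelial form, had levels of -2.86 and -1.96, a difference of -0.90, and its second detected probe differed by -1.31.

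Copper pumps were each read from 1 probe. ATP7A, which exports copper and supplies it to the secretory pathway in most tissues, was detected in Zebu testis alone. Its bound was 1.36-fold lower in crossbred testis, and under normexp it differed by -0.20. ATP7B, the form best known from liver, had levels of -4.28 in crossbred and -5.33 in Zebu testis and differed by 1.05. Neither copper pump reached the threshold.

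Of the 10 flippase genes (P4 type) 8 were detected, with a median difference of 0.34 and a range from -1.17 to 2.02. ATP8A2, a flippase of photoreceptors, neurons and testis, was called higher. Its brightest probe had levels of -3.59 and -3.56 in crossbred testis and of -6.40 and -4.80 in Zebu testis in its 2 spots. The crossbred spots lay close together and the Zebu spots 1.60 apart, and 1 of the Zebu spots was dim. The spots differed by 2.81 and 1.24, a mean of 2.02. With the dim Zebu spot set to the lowest level well above background, the mean of both spots was 3.47-fold higher in crossbred testis. The spot measured in both groups was by itself 2.36-fold higher. The other 2 ATP8A2 probes were dim in both groups. With normexp background correction the difference was 0.84, and in the log2 values of the authors it was 1.22, both under the threshold.

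ATP8A1, the closest relative of ATP8A2, had levels of -0.63 in crossbred and -2.03 in Zebu testis and differed by 1.40, with 0.93 for its second probe. ATP11B, a flippase of endosomes, had levels of 0.11 and -1.08, a difference of 1.19. ATP8B3, the flippase of the acrosome, had levels of 1.75 and 1.20, and its 2 probes differed by 0.55 and 0.63. These 3 genes were higher in crossbred testis by more than the SD between spots but under the threshold. In the opposite direction, ATP10D had levels of -3.99 and -2.82, a difference of -1.17, with -1.04 by its second probe, which was dim in crossbred testis and at least 2.06-fold lower there. ATP8B4 gave no single direction, since its brightest probe differed by -0.60 and its other probe by 1.97, which was dim in Zebu testis and at least 2.995-fold higher in crossbred testis. The 4 probes of ATP9B differed by between -0.15 and 0.37.

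Among the P5 type, which act in the endoplasmic reticulum and the endolysosomal system, 4 of 5 genes were detected and none reached the threshold. ATP13A4 differed by 1.19, ATP13A3 by 0.33, ATP13A1 by -0.46 and ATP13A2, the lysosomal polyamine transporter, by -0.90. The 2 spots of ATP13A2 differed by -1.03 and -0.78. Its second probe, dim in crossbred testis, differed by -0.29 with a bound of 1.21-fold lower, which is under the SD between spots. The ATP13A3 probes share 44 bases and differed by 0.33 and -0.04, so that overlapping probes of 1 transcript lay 0.36 apart.

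**Figure D2:**
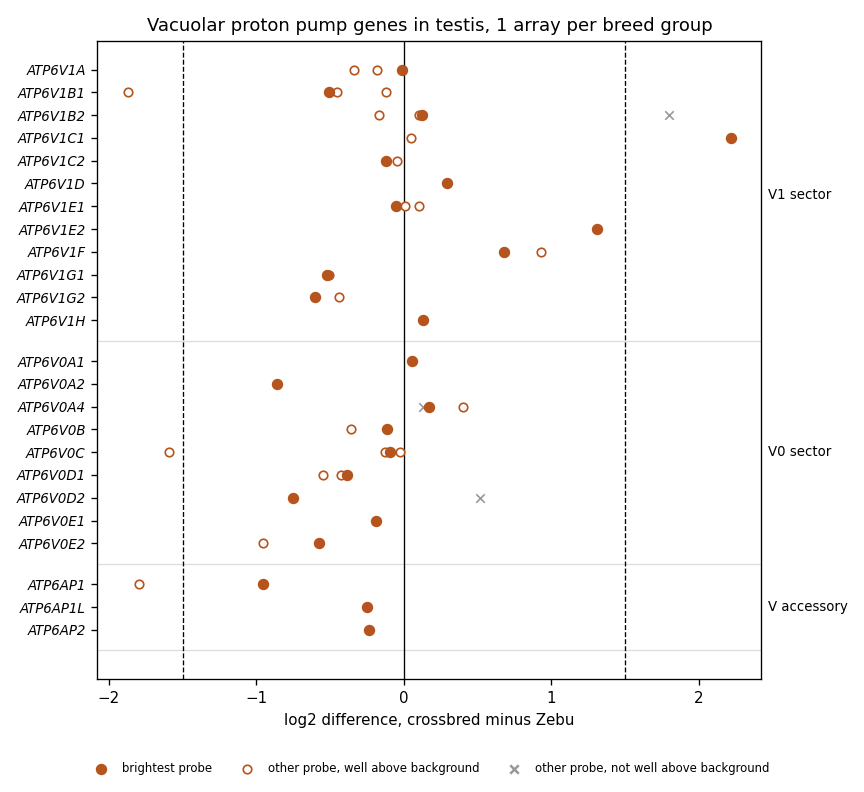
Difference of each detected V-ATPase gene on the log2 scale (x axis, crossbred minus Zebu), by sector. Filled points are the brightest probe, open points other detected probes, crosses probes dim on both arrays, and dashed lines the threshold of 1.5; differences of probes dim on 1 array are as measured. ATP6V1C1 is the single filled point past 1.5, and its open point lies near 0.

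The V1 sector held the only V-ATPase gene called higher. ATP6V1C1 is the regulatory C subunit at the joint of both sectors. By its brightest probe, which has 1 spot, it had a level of 2.79 in crossbred and of 0.57 in Zebu testis. This is 2.22 or 4.66-fold higher. The 2 spots of the other ATP6V1C1 probe had levels of 0.82 and 0.76 in crossbred and of 0.73 and 0.75 in Zebu testis, differences of 0.09 and 0.01. The probes of the gene thus lay 2.17 apart, far more than the SD between spots. Averaged over both probes the difference was 1.13, which is under the threshold. ATP6V1C2, the second gene for this subunit, differed by -0.12 and -0.04 in its probes.

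Subunits that form the catalytic head differed little. ATP6V1A, which splits ATP, had levels of 2.94 and 2.95, and its probes differed by -0.01, -0.34 and -0.18. For ATP6V1B2, the widely expressed B subunit, 3 probes detected in both groups differed by 0.12, -0.17 and 0.10. Its remaining probe has 2 spots that did not agree. In the first spot the processed signal was 160.6 for crossbred and 9.98 for Zebu testis, which differed by 4.08. In the second spot the signals were 7.23 and 10.5, a difference of -0.48. Of these 4 values the first alone was well above background, and 6 of the 16 nearby spots with a value there were also past the threshold and higher. The log2 values of the authors give 4.03 for this probe.

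ATP6V1B1, the B subunit of kidney and epididymis, differed by -0.51, -0.45 and -0.12 in 3 probes, and by -1.87 in the remaining one, which was dim in crossbred testis and at least 2.93-fold lower there. The stalk subunit E has 2 genes. ATP6V1E2, the germ cell form, had spot levels of 2.29 and 2.38 in crossbred and of 1.09 and 0.96 in Zebu testis. These spots differed by 1.20 and 1.42, and their mean of 1.31 is under the threshold. ATP6V1E1 had levels of 3.69 and 3.75, and its 3 probes differed by -0.05, 0.10 and 0.01. The spots of ATP6V1E2 were thus all higher in crossbred testis while all probes of ATP6V1E1 lay within the SD between spots.

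The remaining V1 subunits were ATP6V1D with a difference of 0.29, ATP6V1F with 0.68, ATP6V1G1 with -0.52, ATP6V1G2 with -0.60 and ATP6V1H with 0.13. ATP6V1F has a second probe that is the reverse complement of the first over 59 bases, so the probes read opposite strands. The sense probe had levels of 2.90 and 2.23, and the other had -2.50 in crossbred and -3.43 in Zebu testis and differed by 0.93. Both probes were detected in both groups and had higher levels in crossbred testis. Whether the weaker signal came from a transcript of the opposite strand was not tested.

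In the V0 sector all 9 genes were detected, 7 of them with a difference below 0, and the median was -0.19. ATP6V0C, the proton-carrying ring subunit, had levels of 3.38 in crossbred and 3.47 in Zebu testis by its brightest probe, which differed by -0.09. The pair of overlapping probes further 5′ differed by -0.13 and -0.03. The discordant probe, the one nearest the 3′ end, had levels of 2.32 and 3.92, a difference of -1.59, and was the only probe of the gene called lower. Spots near this spot had a median difference of 1.18 in the opposite direction, and 7 of 16 of them were past the threshold and higher. ATP6V0B, another ring subunit, differed by -0.11, ATP6V0D1 by -0.39, ATP6V0E1 by -0.19 and ATP6V0E2 by -0.58. Of the large a subunits, which steer the pump to its membrane, ATP6V0A1 differed by 0.05, ATP6V0A2 by -0.86 and ATP6V0A4 by 0.17.

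All 3 accessory genes had a difference below 0. ATP6AP1, a chaperone-like subunit, had spot levels of 1.17 and 1.26 in crossbred and of 2.19 and 2.15 in Zebu testis. The spots differed by -1.02 and -0.89, and its second probe was at least 3.47-fold lower in crossbred testis with a measured difference of -1.80. Both probes of ATP6AP1 were lower in crossbred testis, but the brightest did not reach the threshold. ATP6AP2, the prorenin receptor, differed by -0.23 and ATP6AP1L by -0.25.

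**Figure D3:**
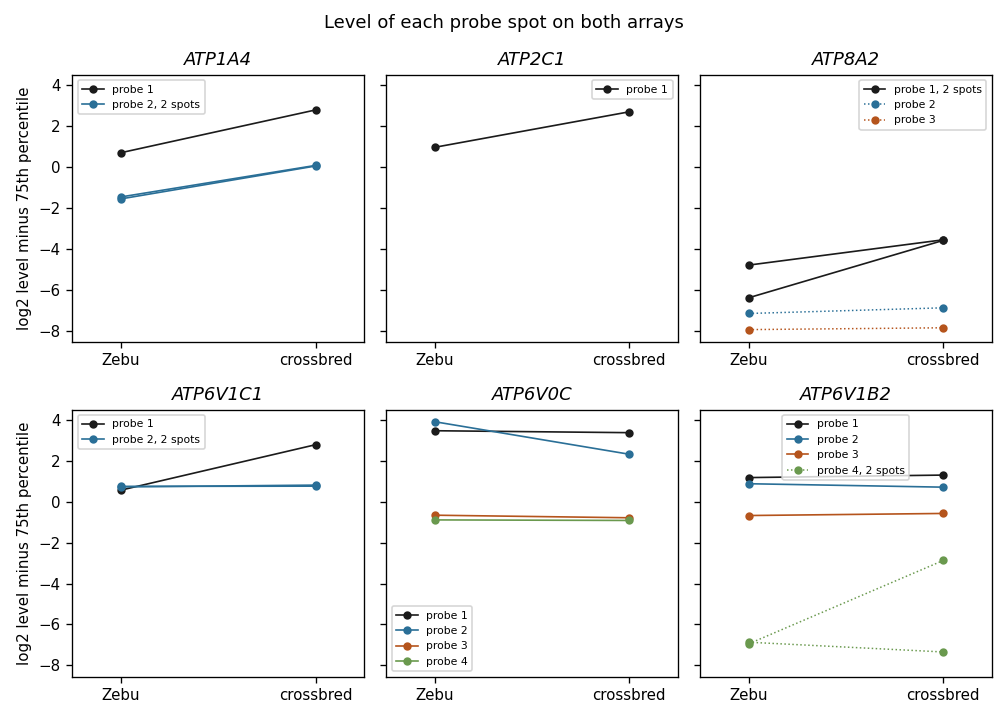
Level of every spot of 6 pump genes on both arrays (y axis, log2 minus the 75th percentile of the array), with a line joining the Zebu and the crossbred value of a spot; dotted lines are probes that were dim on both arrays. All 3 lines of ATP1A4 climb from Zebu to crossbred, while in ATP6V1C1, ATP6V0C and ATP6V1B2 1 line departs from the others.

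Taking probes rather than genes, 107 of 131 pump probes were detected, of which 6 were called higher (5.61%) and 4 lower (3.74%). Over all 39804 detected probes, 6.14% were called higher and 2.99% lower. The probes called higher were both of ATP1A4 and 1 each of ATP2C1, ATP6V1C1, ATP8A2 and ATP8B4, and those called lower included 1 each of ATP6AP1, ATP6V0C and ATP6V1B1. Of 35 pump genes with several detected probes, 26 had all probes on the same side of 0, and in 22 the probes lay within 0.5 of each other. In 5 genes they lay more than 1.5 apart, among them ATP6V0C, ATP6V1B1, ATP6V1C1 and ATP8B4. A probe other than the brightest had the sign of the brightest in 43 of 54 cases, or 79.6%, against 74.2% over all genes of the array. Of the 131 probes, 23 cover a stretch of genome longer than their 60 bases in the array annotation, as a probe across an exon junction does, and 3 have no position.

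Forms of the pumps known from testis or sperm were ATP1A4, ATP6V1E2, ATP8B3 and ATP2B4, with a median difference of 0.93, 3 of 4 above 0 and 1 called higher. The forms of the proton pumps known from kidney and epididymis were ATP6V1B1, ATP6V0A4, ATP6V0D2, ATP6V1G3, ATP6V1C2 and ATP12A, of which 5 were detected, none was called and the median was -0.12. ATP6V0D2 was detected in Zebu testis alone, with a bound of 1.13-fold lower in crossbred testis. This bound, a log2 difference of -0.18, is smaller than the SD between spots. Its other probe, dim in both groups, differed by 0.52, and under normexp the gene differed by -0.15. All 12 listed spermatid markers were detected, 9 were called higher in crossbred testis, and their median difference was 1.81. The log2 of their summed unlogged levels was 9.56 on the crossbred and 8.50 on the Zebu array, a sum to which the brightest genes add most. Among them TNP2, ODF1, AKAP4, SPEM1, TSSK3, CATSPER3, TXNDC8 and ACRV1 were reported as upregulated by the study from these same arrays. The count called higher and the median are therefore not an independent measure of spermatid RNA. In qPCR by the study, TNP1 and TNP2 were significantly higher in crossbred testis. SPEM1, with a difference of 2.92 here, went the opposite way in that qPCR. The part of the spermatid markers in the result was not tested. The defining spermatid genes PRM1 and PRM2 had levels of 7.43 and 7.03 in crossbred testis and of 7.07 and 5.16 in Zebu testis, so the labelled tissue was matched by its germ cell transcripts on both arrays.

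Marker lists of the other testis cells had lower medians than that of spermatids. They include DHH, CYP17A1 and HSD3B1, which the study reported as downregulated on these same arrays. The median difference was 0.41 for 5 spermatocyte markers, -0.71 for 7 spermatogonium markers, -1.09 for 6 Sertoli cell markers, -0.79 for 6 Leydig cell markers and -0.77 for 5 markers of peritubular and smooth muscle cells. The log2 of the summed unlogged levels was 5.77 on the crossbred and 6.69 on the Zebu array for the Sertoli markers. For the Leydig markers it was 6.46 and 7.05. Of the 53 detected pump genes, 24 had a difference above 0 and 29 below 0, while 46.9% of all transcripts lay above 0. The split of the pump genes was thus near that of all transcripts. ATP1B1, ATP2B1 and ATP6AP1 were among those below 0. The part of these cell types in the differences was not tested. Endothelial markers had a median of 0.11 and macrophage markers of 0.01. Of the red blood cell markers only HBA was detected, with a difference of -2.15. Of 6 epididymis markers 3 were on the array and 2 were detected, FOXI1 and CA2, with a median of 0.61. The log2 of their summed unlogged levels was -0.54 on the crossbred and -1.37 on the Zebu array.

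**Figure D4:**
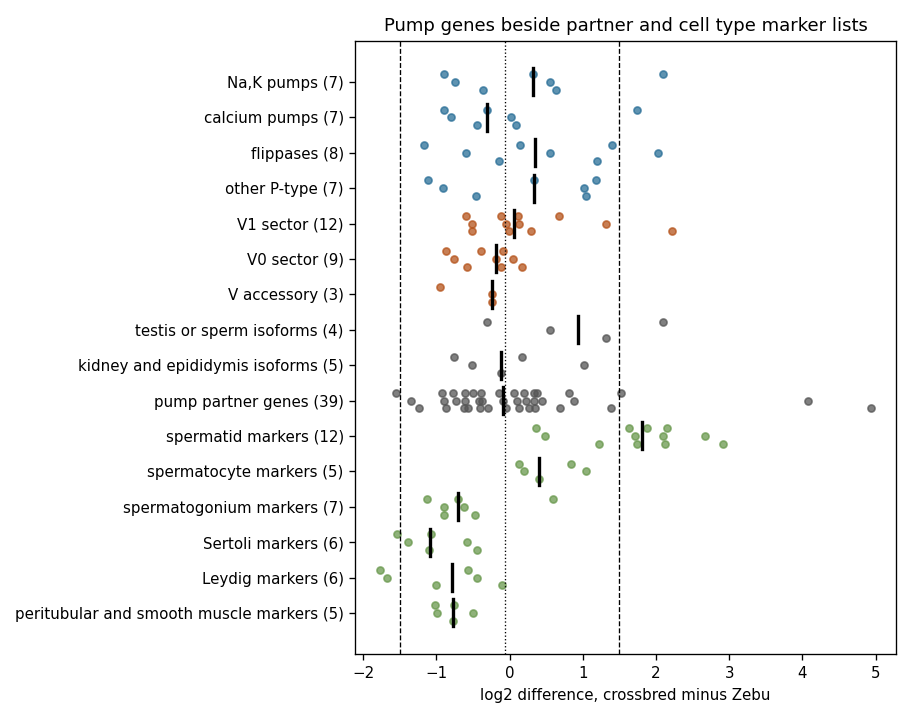
Differences of detected genes on the log2 scale (x axis, crossbred minus Zebu) for pump families, isoform lists, partner genes and cell type markers, with the number of genes in parentheses; each point is 1 gene by its brightest probe, black bars are medians, the dotted line is the median of all transcripts and dashed lines the threshold of 1.5. The medians of the groups of pump genes as plotted lie between those of the spermatid markers (1.81) and the Sertoli markers (-1.09). Both of these marker lists hold genes that the study reported as differing on these arrays.

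Genes that work with the pumps were taken from a list of 43 partners, of which 40 were on the array and 39 were detected. Of these, 3 were called higher (7.69%) and 1 lower (2.56%) in crossbred testis, close to the 7.12% and 2.92% of all transcripts, and the median difference was -0.08. MSMB, among those called higher, was listed because the study names it, and the study reported it as upregulated on these same arrays. Its call was therefore known beforehand, and the share called higher is not independent of the study. Sarcolipin (SLN), a small inhibitor of SERCA pumps, had levels of -3.34 and -4.87, a difference of 1.53, while phospholamban (PLN), another such inhibitor, differed by -0.92. MSMB, a secreted protein that inhibits the Na+/K+ pump of sperm in some species, had levels of 1.76 in crossbred and -3.18 in Zebu testis and differed by 4.94 on 1 probe. In qPCR by the study, MSMB followed the same trend without a significant difference. The sodium and calcium exchanger SLC8A1 differed by 4.08 by its brightest probe and by -1.39 by its other probe, so it gave no single direction. ATP4B, the beta chain of the gastric H+/K+ pump, was detected in Zebu testis alone and was at least 1.56-fold lower in crossbred testis, a call that was lost under normexp and under quantile normalization.

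Most other partners lay within the threshold. The 6 detected FXYD proteins, which tune the Na+/K+ pump, had a median of -0.47, with 5 below 0. The CDC50 partners of the flippases, TMEM30A, TMEM30B and TMEM30C, differed by 0.33, 0.20 and 0.44, all above 0. The 10 genes listed for assembly of the V-ATPase or for binding to it had a median of -0.17. NCOA7 had the lowest value among them with -1.24, and its other probes differed by between -1.32 and -0.98. TCIRG1, the a3 subunit of the V0 sector, differed by -0.78. The endosomal and lysosomal chloride exchangers and their partner OSTM1 had a median of 0.02, and the copper uptake and delivery proteins of -0.50, although the copper chaperone ATOX1 differed by 0.89 with levels of 5.97 and 5.09.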

How the data were processed

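Pump genes and gene lists were chosen with earlier results of these data known. The authors deposited for each spot of 2 Agilent arrays a processed signal, an intensity that was background-subtracted within the array but not scaled between arrays, with the mean and local background intensity (Feature Extraction 11.5.1.1). They also deposited log2 values shifted by the 75th percentile of the array. Where spots of a probe differed in being well above background, and both means lay over 0.1 apart, these log2 values used only the spots that were, in 538 of 539 such probes on the crossbred array and in 517 of 517 on the Zebu array, within 0.05.

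Here, 13 outlier spots and all control spots were left out, the log2 of the processed intensity was averaged per probe, and each array was shifted to its 75th percentile, a signal of 1176 on the crossbred and 1233 on the Zebu array. Bounds use, per array, the lowest level well above background, -5.78 and -5.94, or the dim probe's own value if higher (for ATP8A2, per spot). Spots near a spot are its 18 nearest, without those lacking a value. With 1 array per group, no test was possible, and values are descriptions. Named genes were those past the threshold by any probe, those the study names, the isoform lists, and others where their family is described. Some pump genes are counted but not reported here by name. All 60 pump names are in the RefSeq gene table of ARS-UCD2.0, which gave names only. Alternatives were normexp with an offset of 50 (limma 3.58.1, R 4.3.3), other scalings, the deposited log2 values, other thresholds and filters, and means over probes. The steps were tested on simulated data in Python 3.11.15 with numpy 2.4.6 and pandas 2.3.3.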

Additional observations from a re-analysis of the deposited data

How the results depend on the processing

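No paired analysis was possible because each group has 1 array. The counts of pump genes moved with the threshold. At a log2 difference of 1, 10 of the 53 detected pump genes were higher and 2 lower. Of the 24751 detected transcripts, 3173 were higher and 2196 lower at that threshold. At a linear fold of 1.5, 12 pump genes were higher and 12 lower, beside 5290 and 5504 of all transcripts. Without a filter on dim probes 2 pump genes were lower, both with brightest probes well above background on neither array. Requiring every detected probe of a gene to pass, a setting chosen after seeing the data, left 3 higher, namely ATP1A4, ATP2C1 and ATP8A2. ATP2C1 and ATP8A2 have 1 detected probe each, so this setting could not remove them. It was not run over all transcripts, so no share stands beside it. All transcripts numbered 1762 higher and 722 lower at the threshold of 1.5, with 1030 and 169 under normexp. At a log2 difference of 2 they numbered 863 and 297. With only probes well above background on both arrays, 397 were lower. Of the calls, 70.9% were higher, against 85.9% under normexp. Of the partner genes 0 were lower under normexp and under quantile normalization. The family medians and the agreement between probes stayed within the SD between spots or within 15 percentage points under all settings run. Among single genes, ATP8A2 left the threshold under normexp (0.84) and in the deposited log2 values (1.22), and ATP6V1C1 when averaged over its probes (1.13). The cause was not tested. ATP7A, ATP7B, ATP12A, ATP13A4, ATP10D (-0.74) and ATP6V0D2 (-0.15) moved towards 0 under normexp, as an added offset does by construction. Signal over background limits what can be said of such weak probes. As means over detected probes, ATP6V0C moved to -0.46, ATP6AP1 to -1.37 and ATP8B4 to 0.68.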
